A study of Mus musculus with 8 samples.

Results

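The potassium channel genes were all genes whose platform symbol begins with Kcn, the name stem of the pore-forming and auxiliary subunits of potassium channels. The array measured 84 of them with 167 probe sets, among 18193 genes in all, and each gene was read from its brightest probe set by the mean of the 8 arrays. Of the 84 genes, 24 had a mean log2 intensity of at least 6 over the 8 arrays and are described here, and the other 60 were dimmer. The described genes were 9 of 31 voltage-gated pore subunits, 5 of 15 inward rectifiers, 3 of 12 tandem-pore channels, 1 of 8 calcium- or sodium-activated channels, 5 of 15 auxiliary subunits and 1 of 3 antisense RNAs. In 21 of the 24 every group mean was at or above 6. Kcna5 and Kcnq1ot1 were below it in 10-week KO hearts only, at 5.83 and 5.77, and Kcnab2 was below it at 4 weeks in both genotypes. Just inside the minimum lay Kcnab2 at 6.0 and Kcnq1ot1 at 6.14, and just outside it Kcnh1 at 5.85 and Kcnd3 at 5.82.

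Female mice gave the hearts: some carried a conditional gene knock-out (KO) driven by MCK, the promoter of muscle creatine kinase, which is active in heart and skeletal muscle cells, and the others were wild-type (WT) littermates. There were 4 groups of 2 mice, KO and WT at 10 weeks and KO and WT at 4 weeks, with 1 array for each heart. Mice of 1 age shared a litter by the labels, so age, litter and any difference in handling cannot be told apart when ages are compared. The heart RNA held cells in which MCK is not active, and in such RNA fewer cells of a type and less RNA per cell cannot be told apart.

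Potassium channels let potassium leave the cardiomyocyte and so end the action potential and hold the resting voltage. In the mouse ventricle a fast transient outward current, carried by Kcnd2 and Kcnd3 pores with the auxiliary subunit Kcnip2, and delayed rectifiers such as Kcna5 do most of the repolarising. Inward rectifiers hold the resting voltage (Kcnj2, Kcnj12), answer acetylcholine in the atria (Kcnj3, Kcnj5) or open when ATP falls (Kcnj11 with Abcc9), and tandem-pore channels such as Kcnk3 carry background current.

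Median intensity lay between 34.3 and 37.4 per array, no value was at 0, and the number of arrays limits the precision. The heart label was borne out by the markers of cardiomyocytes: Myh6, the main myosin heavy chain of the adult mouse heart, had a mean log2 intensity of 13.72. 1 array stood apart: on the second principal component, which held 24.3% of the variance, replicate 1 of the 10-week WT hearts lay at 43.3 and the other arrays between -13.9 and 4.18. The 6 measured liver markers summed to 4890 in that array and 694 in the other 10-week WT array, and the 5 kidney markers to 934 and 224. The liver markers also varied elsewhere, from 412 to 673 in 10-week KO, from 318 to 4640 in 4-week KO and from 1110 to 3080 in 4-week WT hearts, and their part in the results was not tested. Results of the 24 genes at 10 weeks are therefore also given without that array, and those of related genes and markers are not.

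Intensities of different probe sets depend on probe sequence and are not per length, so they give no order of abundance between genes. Kcnj11, the pore of the cardiomyocyte ATP-sensitive channel, was the brightest, above 92.7% of all genes measured. Its log2 intensity was 9.28 and 9.42 in 10-week KO hearts, 9.13 and 9.27 in 10-week WT hearts, 9.25 and 8.96 in 4-week KO hearts and 9.11 and 9.19 in 4-week WT hearts. The 8 values lay close together, with the 10-week KO pair at the top. Kcnk3, a background channel of the tandem-pore family, gave 8.55 and 8.90 in 10-week KO, 8.17 and 8.97 in 10-week WT, 8.99 and 9.34 in 4-week KO and 9.15 and 9.11 in 4-week WT hearts. The 10-week values were the lower ones in both genotypes, and KO and WT overlapped at each age. The median gap between the mice of a group, over the 24 genes, was 0.24 in 10-week KO, 0.19 in 10-week WT, 0.12 in 4-week KO and 0.11 in 4-week WT hearts. The largest gap, 0.94, was that of Kcnj5 between the 10-week WT hearts.

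**Figure D1:**
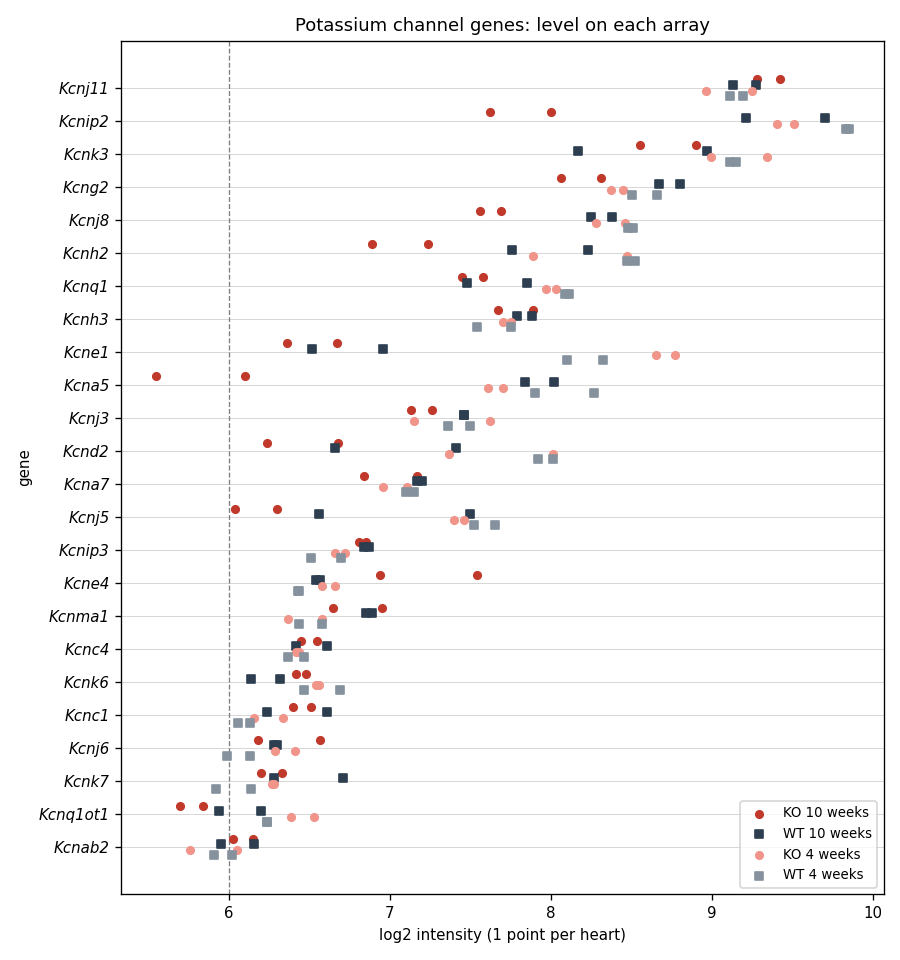
Log2 intensity of the 24 potassium channel genes in each of the 8 hearts, by gene and group, each point 1 array. Most genes lie in a narrow band over all arrays, while Kcna5, Kcnip2, Kcnh2 and Kcnj8 are lowest in the 10-week KO hearts and Kcne1 is lower at 10 than at 4 weeks.

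The 10-week comparison asked how the potassium channel genes differed between KO and WT hearts when the mice were older. Kcna5, Kcnip2, Kcnh2, Kcnj8 and Kcng2 were lower in KO hearts and Kcne4 was higher, and the other 18 genes did not pass the test. That was 6 of 24 genes, 25% of them, against 12.1% of all genes and 20.1% of genes with a mean of at least 6. Of all 84 Kcn genes, bright or dim, 7 were called, 8.33%, with 5.95% lower and 2.38% higher. Lower genes made up 20.8% of the 24, against 6.89% of all genes and 12% of genes of that brightness, and higher genes 4.17%, against 5.19% and 8.07%. The 24 differences had a median of -0.16 on the log2 scale, against 0.01 for all genes with a mean of at least 6, and 17 were below 0.

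The largest differences were those of Kcna5 and Kcnip2. Kcna5, a delayed rectifier pore of mouse ventricle, had a log2 intensity of 5.55 and 6.10 in 10-week KO hearts, against 7.84 and 8.02 in 10-week WT hearts. Both KO hearts lay far below both WT hearts. The difference was -2.11 ± 0.19 (log2, SE, n = 2 each), a level 4.31-fold lower in KO hearts (95% interval of the log2 difference -2.54 to -1.67, limma adjusted p = 0.000263). Kcnip2, the auxiliary subunit that brings Kcnd pores to the membrane and shapes the transient outward current, gave 7.62 and 8.0 in KO hearts, against 9.21 and 9.70 in WT hearts. Again no KO heart reached a WT heart, and Kcnip2 was 3.14-fold lower in KO hearts (log2 difference -1.65 ± 0.18, limma adjusted p = 0.000666). A further Kcnip2 probe set, of mean 7.25, read 5.49 and 5.95 in KO hearts, against 7.52 and 7.96 in WT hearts, a difference of -2.02 ± 0.21 (limma, p adjusted over probe sets = 0.000549). A dimmer one, of mean 5.13, had a difference of -0.26 ± 0.13 that did not pass (0.341). Both genes were called in each of the 19 other settings, with differences of -2.38 to -1.83 for Kcna5 and -1.90 to -1.31 for Kcnip2.

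The letters upstream of 5 of the 6 genes called at 10 weeks, 4 of them lower and 1 higher, are shown so that the promoters can be set side by side. Each run is the 250 bases before a start that RefSeq gives on GRCm38.p6, 5′ to 3′ on the gene's strand, at chr6:126535556-126535805 (minus) for Kcna5, chr19:45816064-45816313 (minus) for Kcnip2, chr5:24329592-24329841 (minus) for Kcnh2, chr6:142571615-142571864 (minus) for Kcnj8 and chr1:78816661-78816910 (plus) for Kcne4. Capitals mark matches to the motifs named after the sequences.
Kcna5: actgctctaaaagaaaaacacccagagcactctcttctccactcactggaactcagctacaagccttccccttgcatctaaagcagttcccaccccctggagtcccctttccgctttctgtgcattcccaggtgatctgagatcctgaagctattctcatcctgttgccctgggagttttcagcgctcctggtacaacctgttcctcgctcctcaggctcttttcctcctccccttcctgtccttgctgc
Kcnip2: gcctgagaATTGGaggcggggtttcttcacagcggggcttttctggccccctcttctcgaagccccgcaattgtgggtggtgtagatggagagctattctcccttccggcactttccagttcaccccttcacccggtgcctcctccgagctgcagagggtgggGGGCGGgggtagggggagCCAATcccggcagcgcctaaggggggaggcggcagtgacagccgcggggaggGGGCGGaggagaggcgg
Kcnh2: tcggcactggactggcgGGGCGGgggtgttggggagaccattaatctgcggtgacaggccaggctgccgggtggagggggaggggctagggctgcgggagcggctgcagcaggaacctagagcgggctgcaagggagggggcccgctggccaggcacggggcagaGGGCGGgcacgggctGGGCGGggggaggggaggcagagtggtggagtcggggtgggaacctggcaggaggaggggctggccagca
Kcnj8: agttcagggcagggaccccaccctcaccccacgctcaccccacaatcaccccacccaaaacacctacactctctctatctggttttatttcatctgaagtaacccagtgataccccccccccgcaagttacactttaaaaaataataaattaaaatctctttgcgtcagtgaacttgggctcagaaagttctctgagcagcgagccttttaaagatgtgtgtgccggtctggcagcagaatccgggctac
Kcne4: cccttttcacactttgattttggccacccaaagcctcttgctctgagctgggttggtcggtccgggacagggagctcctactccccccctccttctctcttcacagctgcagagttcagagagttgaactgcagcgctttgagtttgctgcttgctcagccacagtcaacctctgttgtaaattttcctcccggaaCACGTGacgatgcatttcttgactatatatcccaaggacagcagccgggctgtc
Matches were sought on both strands for the TATA box (TATAAA), the CCAAT box (CCAAT), the GC box (GGGCGG), the GATA motif (AGATAA), the amino acid response element (TGATGNAAT), the Iroquois motif (ACANNTGT), the half-site of estrogen-related receptors (AAGGTCA), the E-box (CACGTG) and the cyclic AMP response element (TGACGTCA), and no matches overlapped in these windows. The Kcnip2 window held 2 CCAAT and 2 GGGCGG matches, letters found in 33.8% and 32.7% of all 32851 windows of this length. The Kcnh2 window held 3 GGGCGG matches. The Kcne4 window held 1 CACGTG match, as did 6.02% of all windows, and the Kcna5 and Kcnj8 windows held none of the motifs. For comparison, 12.4% of windows held TATAAA, 9.99% AGATAA, 0.816% TGATGNAAT, 6.31% ACANNTGT, 4.08% AAGGTCA and 1.55% TGACGTCA. G and C made up 73.6% of the Kcnh2 window, 66.8% of the Kcnip2 window, 53.2% of the Kcna5 and Kcne4 windows and 49.2% of the Kcnj8 window, against a median of 52.4% over all windows. A match is a run of letters and not a measured site, and a gene can start elsewhere in heart, as Kcnip2 and Kcnh2 may, whose starts here lie inside the span of the gene.

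Among the other voltage-gated pores, Kcnh2 and Kcng2 were lower in KO hearts. Kcnh2, the pore of the rapid delayed rectifier, had a log2 intensity of 6.89 and 7.24 in 10-week KO hearts, against 7.76 and 8.23 in WT hearts. The groups did not overlap, and the level was 1.91-fold lower in KO hearts (log2 difference -0.93 ± 0.22, limma adjusted p = 0.0236). Kcng2, a pore-family subunit that is silent alone and modifies the channels it joins, gave 8.06 and 8.31 in KO hearts, against 8.67 and 8.80 in WT hearts. Its KO values lay below both WT values, a level 1.46-fold lower (log2 difference -0.55 ± 0.14, limma adjusted p = 0.0288). Kcnd2, the pore of the fast transient outward current, gave 6.24 and 6.68 in KO hearts, against 6.66 and 7.41 in WT hearts. Those groups overlapped, and the difference of -0.58 ± 0.27 did not pass (limma adjusted p = 0.246). Further Kcnd2 probe sets, of mean 6.66 and 6.27, had smaller differences, -0.14 ± 0.26 and -0.14 ± 0.18, and the faintest, of mean 3.16, had 0.03. Kcnd3, its partner gene and below the minimum level, had a difference of -0.46 ± 0.15 (limma adjusted p = 0.0886). At 4 weeks the Kcnd3 difference was about the same, -0.47 ± 0.15 (limma adjusted p = 0.999). Kcnq1, the pore of the slow delayed rectifier, had a difference of -0.15 ± 0.14, with a 95% interval of -0.48 to 0.17. The differences of Kcna7, Kcnh3, Kcnc1 and Kcnc4, further voltage-gated pores, were -0.18, -0.06, 0.03 and -0.01. Further Kcnh3 probe sets, of mean 7.69, 7.39 and 5.67, had differences of 0.34 ± 0.12, 0.38 ± 0.13 and -0.15 ± 0.15, none of which passed. Of the 9 voltage-gated pores 3 were lower and none higher.

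Of the 5 inward rectifiers 1 passed. Kcnj8, a pore of ATP-sensitive channels known best from smooth muscle cells and pericytes of vessels, had a log2 intensity of 7.56 and 7.69 in 10-week KO hearts, against 8.38 and 8.25 in WT hearts. The KO pair lay below the WT pair, at a level 1.61-fold lower (log2 difference -0.69 ± 0.13, limma adjusted p = 0.00718). Of the 12 markers of smooth muscle cells and pericytes, 1 was higher and 1 lower in KO hearts, and their summed intensity was 8500 to 11300 in 10-week KO and 8300 to 12000 in 10-week WT hearts. The median difference of the list was 0.09. The lower marker was the pericyte gene Higd1b, at 6.25 and 6.16 in KO hearts against 8.03 and 6.84 in WT hearts (limma adjusted p = 0.0271). Its value of 8.03 was that of replicate 1, the array that stood apart. The part of these cells in the Kcnj8 result was not tested. Kcnj11 had a difference of 0.14 ± 0.14 (95% interval -0.17 to 0.46). So at 10 weeks the difference of Kcnj8 passed the test and that of Kcnj11 did not, and the difference between these genes was not tested.

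The subunits of the acetylcholine-activated channel, Kcnj5 and Kcnj3, lay below WT without passing in the fit used here. Kcnj5 gave 6.04 and 6.30 in 10-week KO hearts, against 6.56 and 7.5 in WT hearts, and the distance between the WT hearts was larger than that between the KO hearts. The difference was -0.86 ± 0.25 (limma adjusted p = 0.0585), close to the threshold. It passed with only genes of a mean of at least 6 (adjusted p = 0.0445) or only genes at or above the median level (0.0439), after quantile normalization again (0.0264), with trend and robust eBayes settings (0.0424) and without replicate 1 of the WT hearts. The further Kcnj5 probe set, of mean 5.05, had a difference of -0.34 ± 0.22 that did not pass. Kcnj3 gave 7.26 and 7.13 in KO hearts, against 7.46 and 7.46 in WT hearts, a difference of -0.26 ± 0.16 (limma adjusted p = 0.384). Its probe sets disagreed in size: a further one, of mean 6.38, read 5.01 and 4.97 in KO hearts against 6.14 and 6.96 in WT hearts, a difference of -1.56 ± 0.30 that passed (limma, p adjusted over probe sets = 0.011). The mean of the Kcnj3 probe sets also passed, at -0.75 (adjusted p = 0.0295). These channels are chiefly atrial, so atrial markers were read beside them. Of 8 measured atrial markers 2 were lower in 10-week KO hearts, Sln (log2 difference -2.35 ± 0.48) and Stard10 (-1.34 ± 0.32), and 1 was higher, Nppa, which encodes a natriuretic peptide (1.04 ± 0.24), with a median of -0.48 over the list. Myl7, the atrial regulatory light chain, had a difference of -1.56 ± 0.47 that did not pass (limma adjusted p = 0.0602). The 8 markers summed to an intensity of 24100 to 24500 in KO and 17000 to 25300 in WT hearts, of which Nppa was 19200 to 20100 in KO and 8160 to 11100 in WT hearts. The other 7 summed to 4010 to 5210 in KO hearts, below the 8810 to 14100 in WT hearts. In KO minus WT at 4 weeks the list median was 1.18, with differences of -0.15 for Kcnj5 and -0.05 for Kcnj3. Between the ages in WT hearts the list median was 1.11, with differences of -0.55 for Kcnj5 and 0.03 for Kcnj3. The part of atrial tissue in the Kcnj3 and Kcnj5 values was not tested. Kcnj6, another subunit of this family, had a difference of 0.09, and Kcnj12 and Kcnj2, both below the minimum level, had differences of -0.34 ± 0.13 and -0.08 ± 0.15.

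Of the 5 auxiliary subunits 1 was lower, Kcnip2, and 1 was higher, Kcne4. Kcne4, which inhibits Kcnq1 channels, had a log2 intensity of 7.54 and 6.94 in 10-week KO hearts, against 6.57 and 6.54 in WT hearts. Both KO hearts lay above the WT hearts, but at unequal heights, and the difference was 0.68 ± 0.18 (limma adjusted p = 0.0359). Kcne1, the partner of Kcnq1 in the slow delayed rectifier, had a difference of -0.22 ± 0.18, and its groups overlapped. Kcnip3, a calcium-binding protein related to Kcnip2, and Kcnab2, a cytosolic subunit of Kcna channels, had differences of -0.02 and 0.03. Of 10 fibroblast markers 7 were higher and 1 lower in these KO hearts, and their summed intensity was 23500 to 24000 in KO and 10100 to 14200 in WT hearts. Of 11 macrophage and leukocyte markers 5 were higher and none lower, with sums of 8050 to 10200 in KO and 5390 to 6260 in WT hearts, and the part of these cells in the Kcne4 result was not tested. Of the 12 cardiomyocyte markers 2 were higher and 3 lower, with sums of 115000 to 126000 in KO and 119000 to 140000 in WT hearts, and their part in the lower channel genes was not tested.

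None of the 3 tandem-pore channels passed: the differences were 0.16 ± 0.25 for Kcnk3 (95% interval -0.40 to 0.71), 0.22 ± 0.13 for Kcnk6 and -0.23 ± 0.16 for Kcnk7. Kcnma1, the large-conductance calcium-activated channel, had a difference of -0.07, and Kcnq1ot1, a noncoding RNA transcribed against Kcnq1 that makes no channel, one of -0.30 ± 0.13. In 3 genes both KO arrays lay above both WT arrays and in 8 both lay below, that is in 45.8% of the 24. Among genes with a mean of at least 6, 26.9% lay above and 28.1% below in the same way. Of the 60 dimmer Kcn genes only Kcnt2, a sodium-activated channel, was called at 10 weeks (log2 difference 0.62 ± 0.15, limma adjusted p = 0.0247). Among the 24 genes, 15 had a further probe set, and 22 of the 35 further probe sets had the sign of the one used. Only 2 of the 35 were of a gene called at 10 weeks, Kcnip2. The calls of Kcna5, Kcnh2, Kcnj8, Kcng2 and Kcne4 each rest on 1 probe set.

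Several of these calls depended on which hearts were fitted. Without replicate 1 of the 10-week WT hearts, Kcnj5 and Kcnd2 were also lower, at -1.32 (limma adjusted p = 0.000889) and -0.95 (limma adjusted p = 0.0416), Kcne4 no longer passed at 0.70 (limma adjusted p = 0.0705), and 7 of the 24 were lower and none higher, against 7.04% lower among all genes and 12.4% among genes with a mean of at least 6. Without replicate 1 of the 10-week KO hearts, only Kcna5 and Kcnip2 passed, and the limma adjusted p was 0.183 for Kcng2, 0.0579 for Kcnj8, 0.163 for Kcnh2 and 0.181 for Kcne4, whose difference was then 0.39. Without replicate 2 of the 10-week WT hearts it was 0.0673 for Kcng2, 0.0666 for Kcnh2 and 0.0603 for Kcne4. The 4-week hearts do not enter the 10-week difference. Leaving 1 of them out kept the difference unchanged and altered only the estimate of spread and its degrees of freedom. Even so, Kcng2, Kcnh2 and Kcne4 did not pass without either 4-week WT heart, and Kcne4 did not without either 4-week KO heart.

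**Figure D2:**
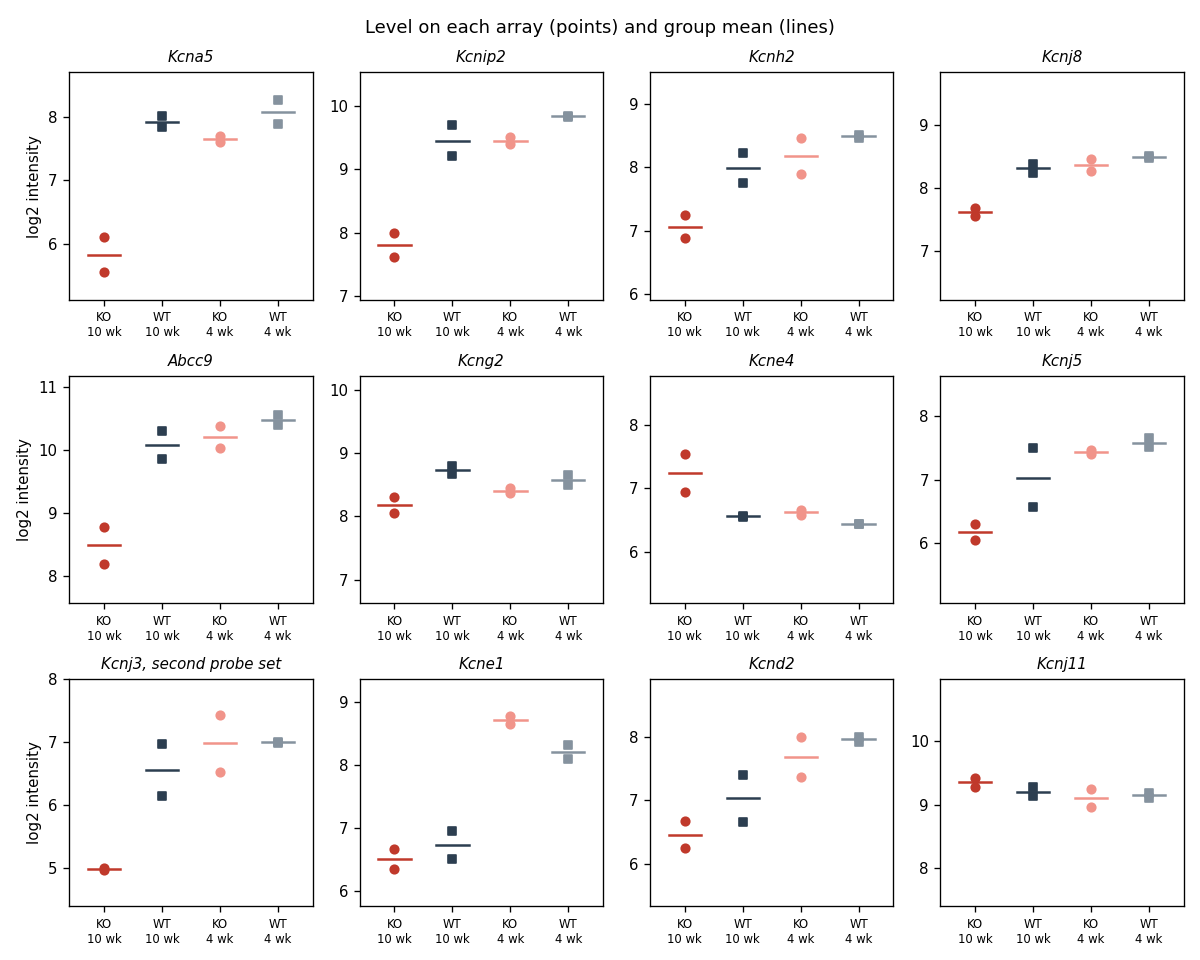
Log2 intensity of single potassium channel genes in the 4 groups, each point 1 heart and each bar the mean of 2. Kcna5 and Kcnip2 of the 10-week KO hearts lie below all other hearts, and the Kcne4 values of the 10-week KO hearts lie above all others.

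At 4 weeks the same question was asked of younger mice, and no potassium channel gene passed. The count was 0 of 24 by limma, against 0.0275% of all genes and 0.0536% of genes with a mean of at least 6, so few genes of any kind passed. Differences over the 24 genes lay between -0.43 and 0.50, with a median of -0.04, and 1 had an unadjusted p under 0.05. Of the 24, 6 had both KO arrays above and 7 both below the WT arrays, against 15.7% and 23.9% of genes with a mean of at least 6.

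Kcne1 had that lowest p at 4 weeks. Its log2 intensity was 8.65 and 8.77 in 4-week KO hearts, against 8.32 and 8.10 in 4-week WT hearts. The KO pair lay above the WT pair by 0.50 ± 0.18 (adjusted p = 0.999). Kcna5 gave 7.61 and 7.70 in 4-week KO hearts, against 7.90 and 8.27 in WT hearts, a difference of -0.43 ± 0.19 (95% interval -0.87 to 0.01, adjusted p = 0.999). Kcnip2 gave 9.40 and 9.51 in KO hearts, against 9.83 and 9.85 in WT hearts, a difference of -0.39 ± 0.18 (95% interval -0.80 to 0.02). Both genes lay below WT without overlap at this age too, by far less than at 10 weeks. Kcnh2 gave 7.89 and 8.47 in KO hearts, against 8.52 and 8.47 in WT hearts, and Kcng2 gave 8.37 and 8.45 against 8.50 and 8.66. Kcnj8 gave 8.28 and 8.46 in KO hearts, against 8.51 and 8.48 in WT hearts, and Kcne4 gave 6.66 and 6.58 against 6.44 and 6.43. Their differences were -0.31, -0.17, -0.12 and 0.19, and each 95% interval included 0.

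**Figure D3:**
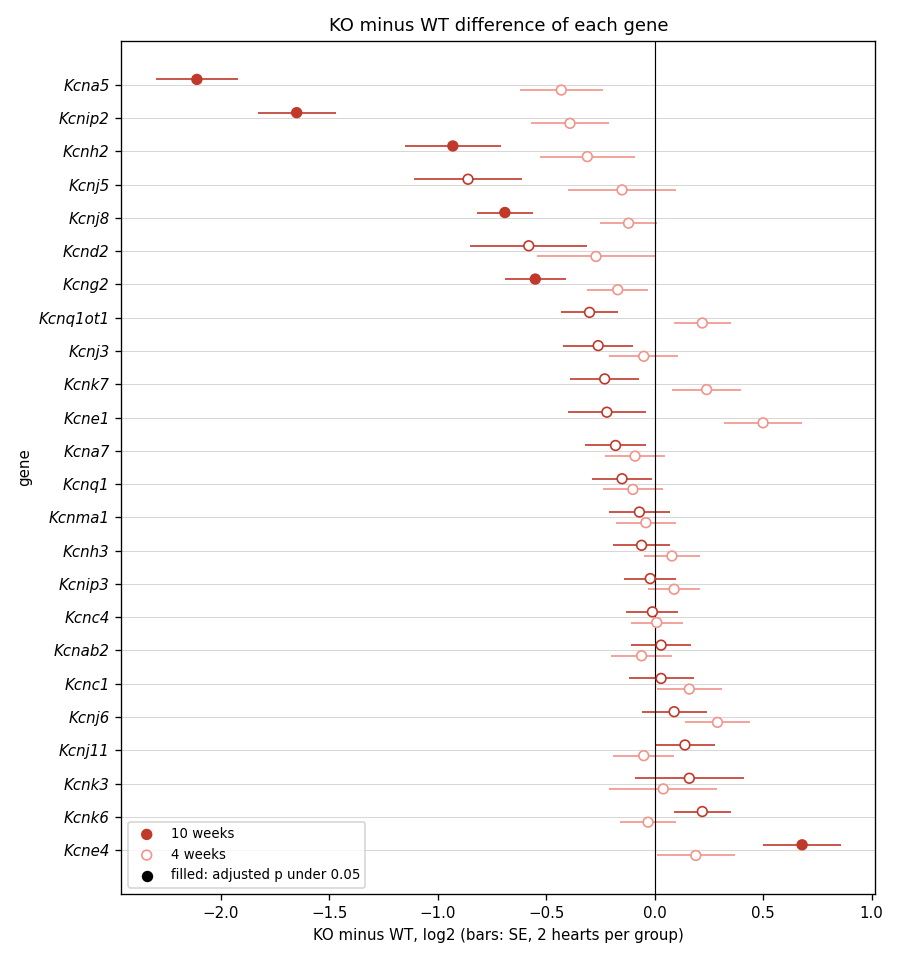
KO minus WT difference in log2 intensity of the 24 potassium channel genes at 10 and 4 weeks. Bars are the SE from limma, and points are filled for an adjusted p under 0.05. At 10 weeks Kcna5 and Kcnip2 lie furthest below 0 and 6 points are filled, and at 4 weeks none is.

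Whether the KO difference itself was another at 10 than at 4 weeks was tested as the difference between the 2 differences. Kcna5 and Kcnip2 passed, both more negative at 10 weeks. That was 2 of 24 genes, 8.33%, against 2.08% of all genes and 3.64% of genes with a mean of at least 6, of which 2.24% passed downward. Over all 84 Kcn genes the share was 2.38%. For Kcna5 the KO difference at 10 weeks minus that at 4 weeks was -1.68 ± 0.27 (limma adjusted p = 0.0211), and for Kcnip2 it was -1.26 ± 0.26 (limma adjusted p = 0.0457). Kcne1, at -0.72 ± 0.25, Kcnj8, at -0.57 ± 0.18, and Kcnq1ot1, at -0.52 ± 0.19, did not pass (adjusted p = 0.211, 0.165 and 0.236). For Kcnh2 this value was -0.62 ± 0.31, for Kcng2 -0.38 ± 0.19 and for Kcne4 0.50 ± 0.25, none of which passed, so those genes were not shown to respond differently at the 2 ages. Without replicate 1 of the 10-week KO hearts or any 1 of the 4-week hearts neither gene passed, with adjusted p of 0.0575 to 0.134 for Kcna5 and 0.124 to 0.216 for Kcnip2, and without replicate 2 of the 10-week KO hearts Kcnip2 did not (0.0554). Without replicate 1 of the 10-week WT hearts both passed and Kcnj5 joined them, at -1.17 (adjusted p = 0.0216), and without replicate 2 Kcne1 did, at -0.94 (adjusted p = 0.0301). Kcnip2 also did not pass with all probe sets tested singly (0.0542) or with arrays centred on their medians (0.0804).

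Markers of several cell types moved in that same contrast of the KO differences. Of 8 atrial markers 2 were lower, Sln (-4.15) and Stard10 (-2.18), with a list median of -1.22. Of 10 fibroblast markers 3 were higher (list median 0.73), as were 2 of 11 macrophage and leukocyte markers (0.45). The summed intensity of the 7 atrial markers other than Nppa was 4010 to 5210 in 10-week KO and 8810 to 14100 in 10-week WT hearts, and 6460 to 16900 in 4-week KO and 3210 to 5550 in 4-week WT hearts. Fibroblast markers summed to 23500 to 24000 in 10-week KO and 10100 to 14200 in 10-week WT hearts, and to 16700 to 18200 in 4-week KO and 15400 to 18500 in 4-week WT hearts. Macrophage and leukocyte markers summed to 8050 to 10200 in 10-week KO and 5390 to 6260 in 10-week WT hearts, and to 5350 to 5880 in 4-week KO and 5100 to 5520 in 4-week WT hearts. Their part in the Kcna5 and Kcnip2 results was not tested.

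Within a genotype, 10-week hearts were set against 4-week hearts. These comparisons share arrays with those above, and each is given by its own values. By the probe sets used, 8 of the 24 genes were lower at 10 weeks in KO hearts and none was higher. That was 33.3%, against 10.5% of all genes and 17.2% of genes with a mean of at least 6, of which 12.6% were lower. Over all 84 Kcn genes the share called was 9.52% in KO and 1.19% in WT hearts. In WT hearts 1 of 24, Kcne1, was lower and none higher, 4.17%, against 0.115% of all genes and 0.204% of genes of that brightness, of which 0.129% were lower.

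Kcne1 was lower at 10 weeks in both genotypes. Its log2 intensity was 6.67 and 6.36 in 10-week KO hearts, against 8.65 and 8.77 in 4-week KO hearts, a level 4.57-fold lower (log2 difference -2.19 ± 0.18, limma adjusted p = 0.000171). In WT hearts it was 6.96 and 6.52 at 10 weeks, against 8.32 and 8.10 at 4 weeks, 2.77-fold lower (log2 difference -1.47 ± 0.18, limma adjusted p = 0.0217). In both genotypes every 10-week heart lay well below every 4-week heart. A further Kcne1 probe set, of mean 6.45, had smaller differences. They were -0.74 ± 0.12 in KO hearts, which passed, and -0.43 ± 0.12 in WT hearts, which did not (limma, p adjusted over probe sets = 0.00715 and 0.205). The WT call was kept without either 10-week WT heart and was lost without either 4-week WT heart. It was also lost without either 4-week KO heart. The KO hearts do not enter the WT difference, so there only the estimate of spread and its degrees of freedom changed.

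The other 7 genes lower with age in KO hearts were of several kinds. Kcna5 was 3.55-fold and Kcnip2 3.13-fold lower at 10 weeks (log2 differences -1.83 ± 0.19 and -1.65 ± 0.18). In WT hearts the 10-week minus 4-week differences of these genes were -0.15 ± 0.19 and -0.38 ± 0.18, and neither passed. Kcnj5 was 2.39-fold lower in 10-week KO hearts, with values of 6.04 and 6.30 against 7.40 and 7.46 at 4 weeks (adjusted p = 0.0138). Kcnd2 was 2.35-fold lower, with 6.24 and 6.68 against 7.37 and 8.01 (adjusted p = 0.021). The groups stood apart for both genes, and in WT hearts the differences were -0.55 ± 0.25 and -0.93 ± 0.27, which did not pass (adjusted p = 0.286 and 0.212). With the probe sets of a gene averaged neither passed in KO hearts, at -0.65 for Kcnj5 (adjusted p = 0.0688) and -0.66 for Kcnd2 (0.066), and the further Kcnj5 probe set, of mean 5.05, had a difference of -0.04. Kcnh2 was 2.17-fold, Kcnj8 1.68-fold and Kcnq1ot1 1.61-fold lower in 10-week than in 4-week KO hearts (adjusted p = 0.0129, 0.00616 and 0.0119). The difference between the genotypes in these age differences is the same contrast as that between the KO differences, which only Kcna5 and Kcnip2 passed.

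Kcnj3 depended on its probe set. The one used had an age difference of -0.19 ± 0.16 in KO hearts, while further ones of mean 6.38 and 5.89 had -1.99 ± 0.30 and -1.57 ± 0.32, which passed (limma, p adjusted over probe sets = 0.00425 and 0.018), and the faintest, of mean 3.50, had 0. The mean of the Kcnj3 probe sets passed, at -0.94 (adjusted p = 0.014). For Kcnh3 the probe set used, of mean 7.75, had an age difference of 0.05 ± 0.13 in KO hearts. A further one, of mean 7.69, was higher at 10 weeks by 0.60 ± 0.12, which passed (limma, p adjusted over probe sets = 0.0154). Those of mean 7.39 and 5.67 had 0.47 ± 0.13 and 0.15 ± 0.15 and did not pass. Between these KO ages 1 of 8 atrial markers was higher and 1 lower, and 5 of 11 macrophage and leukocyte and 2 of 10 fibroblast markers were higher and none lower. Their part in the age differences was not tested.

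Several age values leaned one way without passing. Kcnq1 was at 7.45 and 7.58 in 10-week KO hearts, against 8.03 and 7.97 in 4-week KO hearts, and at 7.48 and 7.85 in 10-week WT hearts, against 8.09 and 8.11 in 4-week WT hearts. The older hearts lay below the younger in both genotypes, with differences of -0.49 ± 0.14 in KO and -0.43 ± 0.14 in WT (adjusted p = 0.0637 and 0.228). Kcnma1 lay higher at 10 weeks by 0.33 ± 0.14 in KO and 0.36 ± 0.14 in WT hearts (adjusted p = 0.19 and 0.249). In KO hearts both 10-week arrays lay above both 4-week arrays for 6 genes and below for 12, against 26.1% and 38.9% of genes with a mean of at least 6. In WT hearts the numbers were 9 and 10, against 18.5% and 38.1%. Without replicate 1 of the 10-week KO hearts Kcnj8, Kcnh2, Kcnd2 and Kcnj5 no longer passed in KO hearts (adjusted p = 0.0547 to 0.16), and without replicate 2 of the 4-week KO hearts these and Kcnq1ot1 did not (0.073 to 0.185). Kcnj5 was also lost without replicate 1 of the 4-week KO hearts and Kcnq1ot1 without replicate 2 of the 10-week KO hearts. Kcnd2 was lost without either 4-week WT heart, which left its KO age difference unchanged and altered only the estimate of spread and its degrees of freedom. In WT hearts 8 genes passed without replicate 2 of the 10-week hearts, that is with only the array that stood apart, and that count rests on it.

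**Figure D4:**
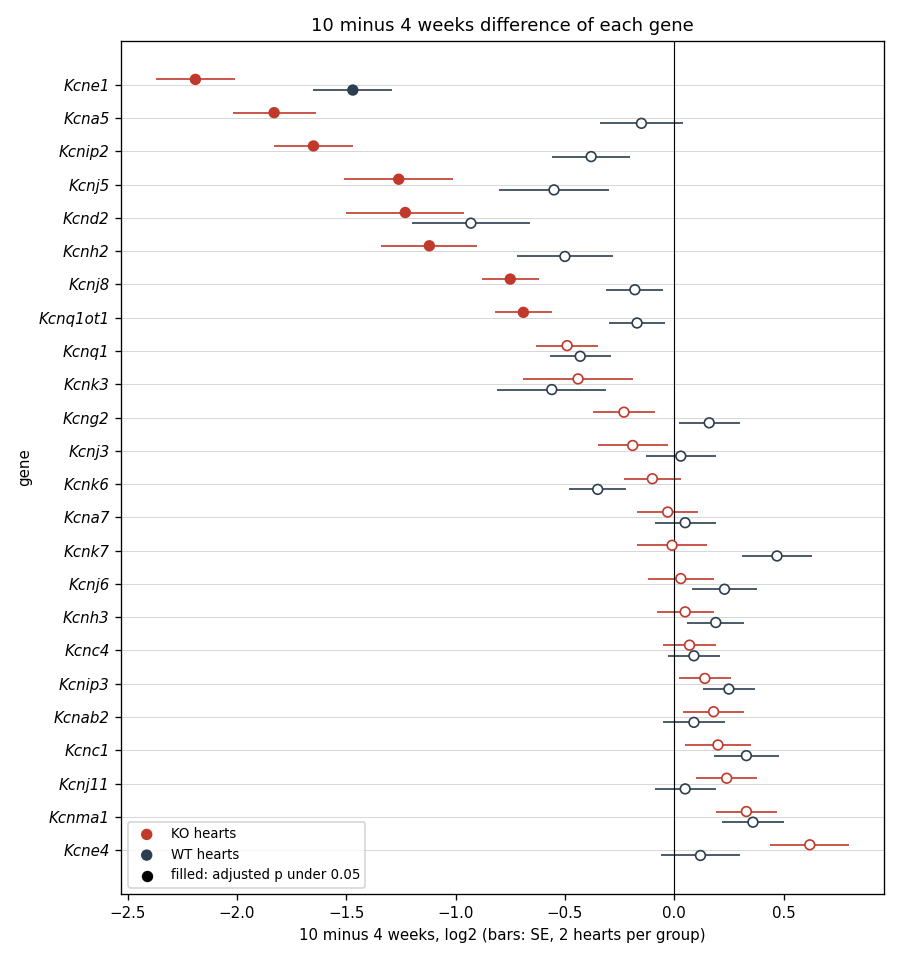
Difference in log2 intensity between 10-week and 4-week hearts for the 24 potassium channel genes in KO and in WT hearts. Bars are the SE from limma, and points are filled for an adjusted p under 0.05. Kcne1 lies furthest below 0 in both genotypes, and Kcna5 and Kcnip2 lie far below 0 in KO hearts and near it in WT hearts.

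Genes that work with these channels gave a mixed picture. Of 14 measured partners of ATP-sensitive and voltage-gated channels, 1 was lower in 10-week KO hearts and none higher. It was Abcc9, the sulfonylurea receptor of cardiac and vascular ATP-sensitive channels, which neighbours Kcnj8 in the RefSeq gene table. Its log2 intensity was 8.20 and 8.78 in 10-week KO hearts, against 9.86 and 10.30 in WT hearts, a level 3.01-fold lower (log2 difference -1.59 ± 0.22, limma adjusted p = 0.00191). Both KO hearts lay more than 1 log2 unit below the WT hearts. Abcc8, the receptor gene beside Kcnj11, had a difference of -0.50 ± 0.19 (adjusted p = 0.127). The median difference of the 14 partners was -0.04, against 0 for all genes.

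Of 19 measured sodium, calcium and pacemaker channel genes, 5 passed in 10-week KO hearts, 2 of them higher and 3 lower, and the median difference was -0.02. Cacnb2, the calcium channel subunit that brings its pore to the membrane, was lower (log2 difference -1.17 ± 0.16, adjusted p = 0.0016), as was Scn4b, a sodium channel subunit (-0.90 ± 0.23, adjusted p = 0.0307). Scn7a, an atypical sodium channel, was higher by 1.11 ± 0.26 (adjusted p = 0.0209). Of 10 pump, cotransporter and gap junction genes 3 were higher and none lower. They were Atp1b1, a subunit of the sodium-potassium pump (1.40 ± 0.20, adjusted p = 0.00224), Gja1, the main ventricular gap junction protein (0.68 ± 0.13, adjusted p = 0.00967), and Slc12a4, a potassium-chloride cotransporter (0.53 ± 0.14, adjusted p = 0.034). Of 20 measured transcription regulators, chosen for roles in heart gene expression, 2 were higher and 1 lower. Tbx20 and Gata4, factors of heart development, were higher by 1.11 ± 0.22 and 1.0 ± 0.26 (adjusted p = 0.0111 and 0.0377). In 10-week WT hearts Tbx20 read 7.46 and 8.08, Gata4 7.01 and 7.98, Scn7a 7.12 and 7.86 and Atp1b1 10.53 and 11.21. The lower value was each time that of replicate 1, the array that stood apart, and the KO values lay above both. Cacnb2 and Scn4b, lower in KO hearts, also read lower in that array, at 8.24 against 8.66 and 5.99 against 6.82. Klf15, known in mouse heart to drive Kcnip2, was lower (-1.06 ± 0.20, adjusted p = 0.00856), and its part in the Kcnip2 result was not tested.

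At 4 weeks none of these genes passed (adjusted p = 0.999 for all). The lowest unadjusted p belonged to Tmem38b and Tmem38a among the partners (differences -0.28 and -0.24), Scn3b and Hcn3 among the channels (0.35 each), Gjc1 and Gja5 among the transporters and junction genes (-0.40 and 0.19) and Klf15 and Irx3 among the regulators (-0.65 and -0.44). Between the ages, only the KO difference of Atp1b1 differed (1.33 ± 0.28, adjusted p = 0.0493). That of Abcc9 was -1.32 ± 0.31 and that of Scn4b -1.35 ± 0.32, with adjusted p of 0.0705 and 0.0714. Abcc8 (-0.42), Cacnb2 (-0.80), Tbx20 (1.15) and Nfatc1 (0.53) did not pass either. In KO hearts Abcc9 and Cav3 were lower at 10 than at 4 weeks (log2 differences -1.71 and -0.63), as were Cacna2d1 (-1.48), Cacnb2 (-1.17), Slc12a2 (-0.58), Esrrg (-0.63) and Gata6 (-0.63), and Atp1b1 (0.82), Gja1 (0.52) and Scn3b (0.50) were higher. In WT hearts none of them passed between the ages, and the lowest p belonged to Cav3 (-0.57), Ank2 (-0.89), Cacna2d1 (-1.05), Scn4b (0.97), Gjc1 (-0.48), Atp1b1 (-0.51), Gata6 (-0.68) and Hey2 (-0.51).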

How the data were processed

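Total RNA of 8 hearts was hybridised to Affymetrix mouse arrays. The deposited values are probe set intensities on the linear scale made by the authors with RMA and GCOS 1.3 in an order that the submitters' processing notes do not state. RMA equalises the arrays' distributions and summarises each probe set, so a shift of most genes would not show. Log2 was taken here, with no filter and no pseudocount.

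Of 45101 probe sets, 64 controls were left out, 34945 named 1 gene, 932 several and 9160 none. Group means were fitted together over the 8 arrays (limma 3.58.1 in R 4.3.3; eBayes, 9.33 total degrees of freedom). All tests were two-sided. A gene was called where its adjusted p (Benjamini-Hochberg, over 18193 genes) was under 0.05. With 2 mice per group, the median SE of a difference was 0.146 over the 24 genes. The script was tested on simulated data.

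The members and lists were chosen with earlier results of these data known. All 24 genes may be named, with values for each heart for called genes and others the results turn on. Of the related lists up to 3 called genes of largest difference are named per comparison, or the 2 of lowest p, and Abcc8, Higd1b, Myh6, Kcnd3, Kcnj2, Kcnj12, Kcnt2 and the atrial markers named were chosen after their values were seen. Promoter sequences are from RefSeq (GRCm38.p6) and covered 17 of the 24 genes. The level of the deleted gene is not reported here.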

Additional observations from a re-analysis of the deposited data

Results flagged for a closer look

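For 2 genes the KO minus WT difference itself differed between the ages by limma's test of the difference. The difference at 10 weeks minus that at 4 weeks was -1.68 ± 0.27 on the log2 scale for Kcna5 (adjusted p = 0.0211) and -1.26 ± 0.26 for Kcnip2 (adjusted p = 0.0457). In both genes the 10-week KO hearts were the lowest of the 8 arrays. In the same contrast 2 of 8 atrial markers were lower (list median -1.22), and 3 of 10 fibroblast markers (0.73) and 2 of 11 macrophage and leukocyte markers (0.45) were higher, and their part in the results was not tested. The groups of 2 mice allow no test of an outlying heart.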

How the results depend on the processing

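At 10 weeks 6 genes were called, 2 of them when only the 10-week arrays were fitted and 2 to 7 when 1 heart was left out. Kcne4 kept its call in 9 of 19 other settings, Kcng2 in 12 of 19, Kcnh2 in 13 of 18 and Kcnj8 in 17 of 19, and Kcna5 and Kcnip2 in all 19. Beside left-out hearts, array weights ended the calls of Kcng2 (adjusted p = 0.0716) and Kcne4 (0.0735), quantile normalization again that of Kcne4 (0.0535), and trend and robust eBayes settings that of Kcng2 (0.0507). With only the 10-week arrays they were 0.116 for Kcng2, 0.144 for Kcne4, 0.0622 for Kcnh2 and 0.0506 for Kcnj8. For the difference of the KO differences the count was 2, and it was 1 with all probe sets tested singly, 1 with arrays centred on their medians and 0 to 3 with 1 heart left out. Between the ages in KO hearts 8 genes were called, and 3 to 10 with 1 heart left out. In WT hearts 1 was called, 0 after a repeat of quantile normalization, 0 with only the WT arrays, 2 with the replicate block, and 0 to 8 with 1 heart left out. At 4 weeks the limma count was 0 in every setting run. The number of genes described was 24, and 52 with a minimum of 5, 14 with a minimum of 7, and 15 when the probe sets of a gene were averaged.

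Replicate numbers are shared between KO and WT, but the labels do not say that they pair mice. Deviations of same-numbered mice correlated at 0.23 at 10 weeks and 0.30 at 4 weeks. With the number as a replicate block, 8 genes were called at 10 weeks, Kcnj5 (adjusted p = 0.0109) and Kcnd2 (0.0453) joining the 6, 0 at 4 weeks, 2 for the difference of the differences and 10 between the ages in KO hearts.

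Of 601 single-gene values under other settings, 509 kept their direction and side of the threshold, 58 lost a call, 33 gained one and 1 turned round. That was Kcnj3 between the ages in KO hearts, a difference of -0.19 that was not called for the probe set used, though further probe sets and their mean passed. With 1 heart left out it lay between -0.42 and 0.04, the last without replicate 2 of the 4-week KO hearts (adjusted p = 0.951), where fewer arrays were fitted. When probe sets labelled as shared between transcripts, of the same gene or of several, were left out, Kcnh2 had none left. With 2 mice per group, differences near the SE were not detectable.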
